A study of Mus musculus with 8 samples.

Results

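The Ly49 receptors are the killer cell lectin-like receptors encoded by the Klra genes of the mouse. Their members here were all probe sets whose annotated gene symbol was Klra followed by a number, including probe sets shared by several Klra genes. There were 11 such probe sets of 45101 on the array, carrying 10 gene symbols. Of these, 9 named 1 gene. The other 2 were shared, 1 by Klra9 and Klra3 and 1 by Klra22 and Klra1, and RefSeq lists Klra22 as a synonym of Klra1. Klra4, Klra6 and Klra10 were not analysed here.

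The study set clonal expansions of CD8 memory T cells against polyclonal CD8 memory T cells taken from the same aged mouse, in 4 mice and 8 samples, each on 1 Affymetrix array covering the mouse genome. All cells came from spleen and lymph nodes of female mice and were sorted as CD8+ CD122+ MHC II- cells. CD122, encoded by Il2rb, is the beta chain of the IL-2 and IL-15 receptors. Expansions 1, 2, 3 and 4 were sorted as positive for TCR Vb3, Vb8.1/8.2, Vb8.3 and Vb14, and their polyclonal partners as negative for the same chain. The sort thus used a receptor chain and not a marker of the clone itself. Expansion 1 was of the integrin alpha4-high subclass, and expansions 2, 3 and 4 of the alpha4-low subclass. The age was 20 months for mice 1 and 2, and 23 months for mice 3 and 4. The strain was C57BL/10SnJ in the first 3 mice. Mouse 4 came from B10.BR, a strain of the same background with a different MHC haplotype. The recorded purity was 91, 95, 96 and 98% for expansions 1 to 4, against 97, 75, 66 and 97% for polyclonal samples 1 to 4.

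Ly49 receptors are lectin-like proteins that sit on the cell surface as dimers and are best known from natural killer (NK) cells. Most members, among them those encoded by Klra1, Klra3, Klra5, Klra7, Klra9 and Klra17, are inhibitory, and many of them bind MHC class I and recruit the phosphatase SHP-1 through a tyrosine motif in the cytoplasmic tail. Klra8 encodes Ly49H, an activating member that signals through the adaptor DAP12 and binds the m157 protein of mouse cytomegalovirus. In NK cells each cell carries its own subset of the family, and a part of memory CD8 T cells, mainly CD122+ ones, carries Ly49 receptors too.

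The genes lie close together in the NK gene complex on chromosome 6. In the RefSeq annotation of GRCm38.p6, the C57BL/6J reference, the 8 members with an entry span chr6:129831154-131247716. The 130 bases before the transcript start are shown for the 6 genes named by the probe sets that were bright enough for a test, since these stretches let a reader see how alike the family's promoters are. All are on the minus strand and are written 5′ to 3′. The capitals mark the longest run shared by the windows of Klra8, Klra7, Klra3 and Klra9.
Klra8: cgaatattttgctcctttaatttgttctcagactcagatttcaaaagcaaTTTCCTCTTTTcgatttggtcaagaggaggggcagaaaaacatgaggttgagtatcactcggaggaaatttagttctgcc
Klra7: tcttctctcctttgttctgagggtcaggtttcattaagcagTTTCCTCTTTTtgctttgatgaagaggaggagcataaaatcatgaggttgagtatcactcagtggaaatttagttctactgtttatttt
Klra3: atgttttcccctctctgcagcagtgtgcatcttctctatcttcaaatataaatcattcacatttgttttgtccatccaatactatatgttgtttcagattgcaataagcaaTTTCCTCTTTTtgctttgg
Klra9: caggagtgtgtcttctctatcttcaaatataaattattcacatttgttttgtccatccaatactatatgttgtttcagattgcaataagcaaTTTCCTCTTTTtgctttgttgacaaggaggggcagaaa
Klra5: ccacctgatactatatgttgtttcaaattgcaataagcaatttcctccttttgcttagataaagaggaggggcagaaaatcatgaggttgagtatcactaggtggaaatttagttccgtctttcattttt
Klra17: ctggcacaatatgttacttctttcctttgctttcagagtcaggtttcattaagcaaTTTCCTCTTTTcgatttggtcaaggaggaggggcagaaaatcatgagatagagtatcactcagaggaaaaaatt
The stretches lie at chr6:130129899-130130028 for Klra8, chr6:130233323-130233452 for Klra7, chr6:130337627-130337756 for Klra3, chr6:130193113-130193242 for Klra9, chr6:129913225-129913354 for Klra5 and chr6:129876673-129876802 for Klra17. Those of Klra9 and Klra5 overlap the annotated span of the gene.

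The shared run, TTTCCTCTTTT, has 11 bases. Searched on both strands in the 250 bases before each start, it occurred in 0.128% of 32851 windows. On the strand of the gene alone, it occurred in 9 of the 13 windows of Klra genes. These windows belonged to 11 genes, of which 8 held the run. The run was found from these very genes, so its share among them describes the family and tests nothing. The run lay 80 to 70 bases before the start of Klra8, 89 to 79 before that of Klra7, 19 to 9 before that of Klra3, 38 to 28 before that of Klra9 and 74 to 64 before that of Klra17. The window of Klra5 did not hold these letters. The core CTTTG, read on either strand and known as the core of the site of TCF-1, was present in 48.6% of all windows. It occurred at 121 and 76 bases before the start of Klra7, 6 before that of Klra3, 25 before that of Klra9 and 106 before that of Klra17, and not in the windows of Klra8 and Klra5. Klra3 and Klra9 shared an unbroken run of 75 bases, Klra3 and Klra5 one of 38 and Klra9 and Klra5 one of 31. That of Klra8 and Klra17 had 30 bases and that of Klra8 and Klra7 had 20.

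The values are linear MAS5 signals with the same trimmed mean on every array. Each array's background was taken as the 95th percentile of 27 control probe sets for bacterial RNA that had evidently not been added, and lay between 33.7 and 61.9. The median signal per array was 46.5 to 75.1. The 6 markers of CD8 T cells were above background on all 8 arrays. Of 5 NK cell markers measured, 4 were above it on at least 1 array. Ncr1, which encodes the NK cell receptor NKp46, was above it on 0 of 8. Levels of different probe sets are not comparable, so only changes are set against each other. The suffix x_at, carried by 7 of the 11 Klra probe sets, marks probes that may also bind related transcripts, and a signal named for 1 member may hold that of another.

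Of the 11 Klra probe sets, 10 were above background on at least 1 array, and 46 of the values of all 8 arrays were above it. A test was run on probe sets with a mean level above a signal of 45.3, which kept 5 Klra probe sets, those of Klra8, Klra9/Klra3, Klra7, Klra5 and Klra17. Klra17 was the dimmest inside that limit, with a geometric mean signal of 54.4, and a probe set of Klra16 the brightest outside it, at 31.1. Klra5 and Klra17 were inside through the polyclonal samples, since their mean level in expansions was under the limit, so counts over the 5 describe those 5 alone. Differences are the expansion minus its polyclonal partner in log2(signal + 5). The added 5 shrinks ratios of dim values somewhat, but values under background still enter as differences. With values raised to background, the mean difference of Klra17 went from -0.68 to -0.10 and that of Klra5 from -1.31 to -0.83. For Klra17, expansion 3 was thereby raised to 61.9, above the 47.0 of its partner.

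Most Klra probe sets read lower in the expansions than in their partners. The mean difference was negative for 8 of the 11 probe sets, against 51.4% of all 45037 probe sets that are not controls, and 6 of the 11 were lower in 4 of 4 pairs, against 5.75% of all. The median of the 11 mean differences was -0.87, beside -0.02 over all. With values under each array's background raised to it, 4 of the 11, Klra8, Klra9/Klra3, Klra7 and Klra5, were lower in 4 of 4 pairs. For Klra5, both arrays of pair 1 were under background. Its sign in that pair is only that of the backgrounds, 46.6 for the expansion and 48.2 for its partner, and carries no order. With these raised values the median of the 11, added after seeing the data, was -0.10. The backgrounds of pair 3 were unequal, at 61.9 for the expansion and 34.7 for its partner. Probe sets under both thus turned higher in that expansion, and Klra17 did too. The raised median depends in part on these unequal backgrounds. Over all probe sets the share and the median with raised values were not computed, so neither has a comparison. Pair by pair, the median of the 11 was -0.73, -0.75, -0.59 and -0.79. No Klra probe set separated the groups completely, since expansions and polyclonal samples overlapped in 11 of 11, where 0.848% of all probe sets had every expansion below every polyclonal sample. In these bulk samples, fewer cells with a receptor and less RNA per cell cannot be told apart.

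**Figure D1:**
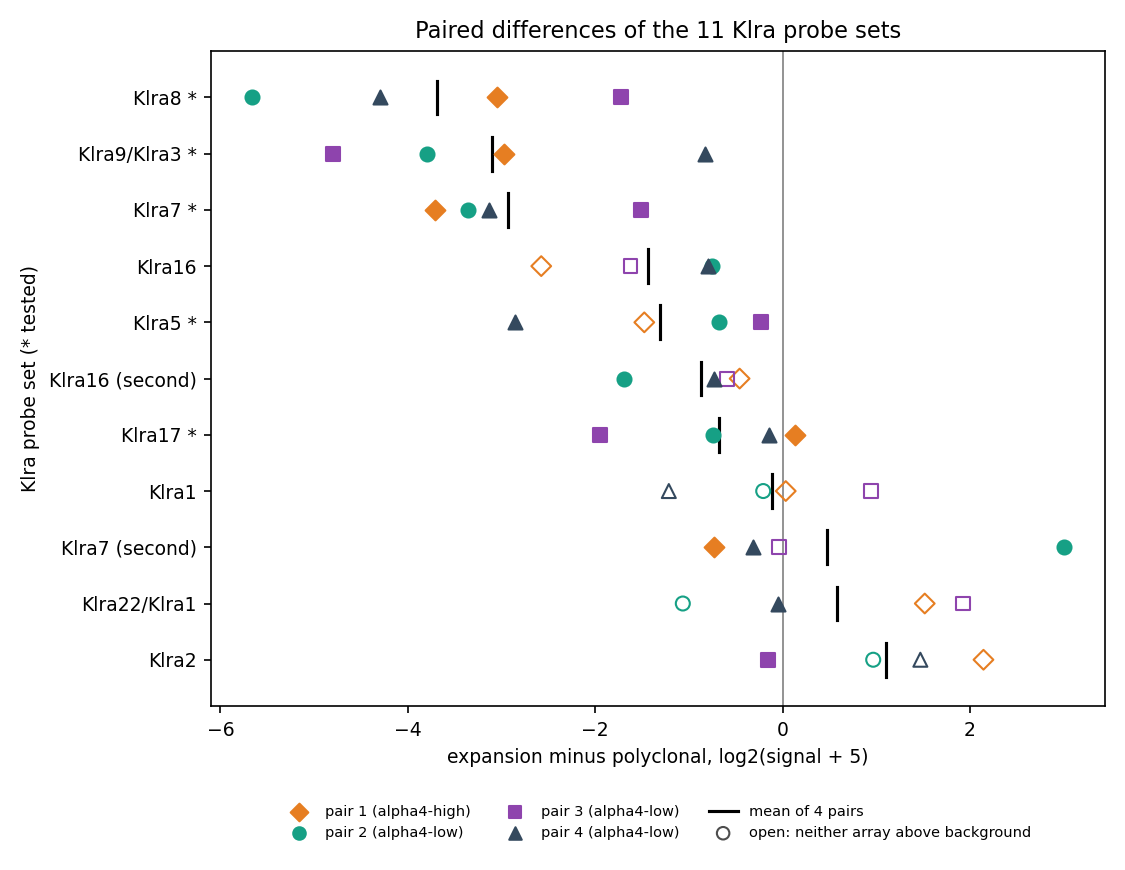
Difference of each expansion from its polyclonal partner in log2(signal + 5) for the 11 Klra probe sets, with 1 symbol per pair and a bar at the mean of 4 pairs. Asterisks mark the 5 tested probe sets, open symbols mark pairs with neither array above background, and 8 of the 11 means lie left of 0.

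After adjustment over all 22518 tested probe sets, 0 of the 5 tested Klra probe sets passed 0.05 in the comparison of all pairs with limma, where 0% of all tested probe sets passed. At an unadjusted limma p under 0.05, 4 of the 5 were lower, beside 2.30% of all tested probe sets. Klra5 was among the 4. Klra5 and Klra17 were inside the limit of the test through the polyclonal samples alone, so this count describes those 5 and is no support for a shift. The smallest p that the exact permutation of signs over 4 pairs can give is 0.125, and the 6 probe sets that were lower in every pair had that value. Among the tested probe sets, 3 Klra probe sets had a mean difference of -2 or less, a size reached by 42 probe sets or 0.187% of all. They were Klra8, Klra9/Klra3 and Klra7, whose limma p-values stood at ranks 6, 8 and 4 of the 22518. All 3 carry the suffix x_at, so they may partly read the same transcripts. The tested probe sets without that suffix, Klra5 and Klra17, had smaller mean differences, of -1.31 and -0.68.

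Klra8, the activating Ly49H, had a signal of 49.1, 292, 198 and 1103 in expansions 1 to 4, against 441, 15079, 665 and 21818 in polyclonal samples 1 to 4. All 8 values were above background, that of expansion 1 only barely, and each expansion was below its partner. The groups overlapped, because expansion 4 was brighter than polyclonal samples 1 and 3. Between the brightest and the dimmest sample, expansions differed by a factor of 22.5 and polyclonal samples by 49.4. The mean level in log2(signal + 5) was 7.94 ± 1.79 in expansions and 11.62 ± 2.93 in polyclonal samples (SD, n = 4 each). The differences of pairs 1 to 4 were -3.05, -5.66, -1.73 and -4.30. Their mean was -3.68, with a limma SE of 0.55, a 95% interval from -4.89 to -2.48 and an adjusted p of 0.147. Without mouse 1, whose expansion was the alpha4-high one, the limma fit gave -3.90 with an adjusted p of 0.0362, and in the other alternatives for all pairs Klra8 did not pass.

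The shared probe set of Klra9 and Klra3, which encode the inhibitory Ly49I and Ly49C, had 1899, 1717, 168 and 18827 in expansions 1 to 4, against 14999, 23815, 4813 and 33349.5 in polyclonal samples 1 to 4. All 8 values were above background. Expansion 3 stood lowest of all, and expansion 4 was brighter than polyclonal samples 1 and 3, so the groups overlapped. The span between samples was wider among expansions, at a factor of 112, than among polyclonal samples, at 6.93. The differences were -2.98, -3.79, -4.80 and -0.82 in pairs 1 to 4, with a mean of -3.10 (SE 0.52, 95% interval from -4.26 to -1.94, limma adjusted p = 0.341). Without mice 2 and 3, whose polyclonal cells had low recorded purity, it was -1.90.

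Klra7, the inhibitory Ly49G, had 43.0, 53.6, 27.9 and 230.4 in expansions 1 to 4, against 623, 595, 88.6 and 2053 in polyclonal samples 1 to 4. The signal was above background in all 4 polyclonal samples and in expansions 2 and 4, so the levels of expansions 1 and 3 are only known to be low. Polyclonal sample 3 was below expansion 4, which made the groups overlap. The differences were -3.71, -3.36, -1.51 and -3.13, with a mean of -2.93 (SE 0.42, 95% interval from -3.86 to -1.996, limma adjusted p = 0.147). The -1.51 of pair 3 rests on the value under background, and was -0.52 with both arrays raised to it. A second Klra7 probe set was near background and was not tested. It read 28.4, 55.3, 13.7 and 53.5 in the expansions, against 50.6, 2.51, 14.2 and 67.8 in the polyclonal samples. It was lower in 3 of 4 pairs. Its mean difference was 0.48, through the 3.01 of pair 2, where the polyclonal value of 2.51 was under background. The mean thus differed in sign from that of the first probe set, but rests on a level without order.

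**Figure D2:**
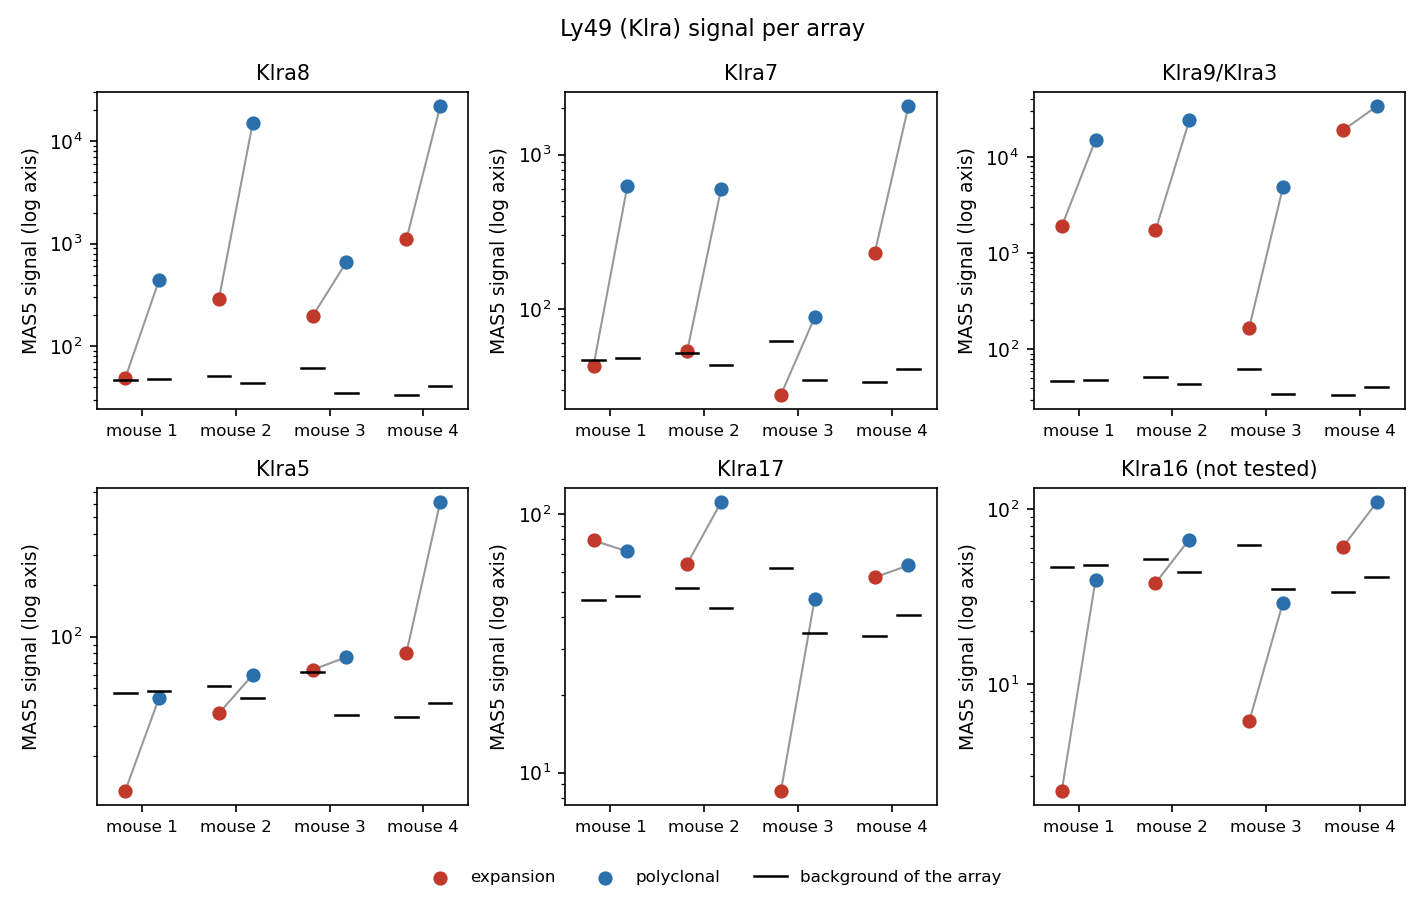
MAS5 signal on a log axis for the 5 tested Klra probe sets and the brightest one of Klra16, with each expansion in red to the left of its polyclonal partner in blue and a line joining the pair. Black bars give each array's background. For Klra8, Klra7 and Klra9/Klra3 each expansion lies below its partner.

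Klra5, the inhibitory Ly49E, had 12.5, 35.6, 64.0 and 80.3 in expansions 1 to 4, against 43.7, 59.8, 76.0 and 612 in polyclonal samples 1 to 4. It was above background in expansions 3 and 4 and in polyclonal samples 2, 3 and 4. Polyclonal sample 4, of the B10.BR mouse, stood apart from the other 7 samples. The differences were -1.48, -0.67, -0.23 and -2.85, with a mean of -1.31 (SE 0.54, limma adjusted p = 0.9998). The mean was -0.79 without mouse 4.

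Klra17 encodes the inhibitory Ly49Q, known above all from plasmacytoid dendritic cells. It had 79.2, 64.4, 8.51 and 56.96 in expansions 1 to 4, against 71.9, 111, 47.0 and 63.5 in polyclonal samples 1 to 4. All samples but expansion 3 were above background, and the groups overlapped. The differences were 0.13, -0.74, -1.95 and -0.14, with a mean of -0.68 (SE 0.54, limma adjusted p = 0.9998), and of -0.0062 without mice 2 and 3. Among 4 markers of plasmacytoid dendritic cells, 3 were tested and 0 passed with limma. The mean difference was -1.08 for Bst2, -0.83 for Tcf4 and -0.98 for Ccr9, which was inside the limit of the test through the polyclonal samples alone. The summed signal of the 4 was 158 to 319 in expansions, against 204 to 1101 in polyclonal samples. The high values were in polyclonal samples 2 and 3, both of low recorded purity, and their largest part was Bst2, with 764 and 410. Siglech, a defining marker, was above background in 0 of 4 expansions and 3 of 4 polyclonal samples. The part of these cells in the Klra17 signal was not tested.

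The other members were dim. The first Klra16 probe set read 2.46, 37.8, 6.11 and 60.8 in expansions, against 39.4, 66.9, 29.2 and 109 in polyclonal samples. The second read 24.0, 15.7, 8.87 and 27.9 in expansions, against 34.8, 62.0, 15.9 and 49.7 in polyclonal samples. Both were lower in 4 of 4 pairs, with mean differences of -1.44 and -0.87, though most of these values were at or under background. Klra2, which encodes Ly49B, read 20.7 to 46.1 in expansions, against 2.24 to 42.3 in polyclonal samples, and was above background in polyclonal sample 3 only. The probe set shared by Klra22 and Klra1 read 6.04 to 39.9 in expansions, against 3.78 to 41.3 in polyclonal samples, with 2 arrays above background. Both had a positive mean difference, of 1.11 and 0.59. The Klra1 probe set, named for Ly49A, was above background on 0 of 8 arrays and had no order there.

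The order of the members was not the same in every mouse. In pair 3 the difference was larger in size for Klra9/Klra3 (-4.80) than for Klra8 (-1.73). In pair 4 it was the reverse, with -0.82 for Klra9/Klra3 against -4.30 for Klra8 and -3.13 for Klra7. Klra7 is left out of the order in pairs 1 and 3, where the expansion was under background. The Klra8 difference minus that of Klra9/Klra3 was -0.07, -1.88, 3.07 and -3.47 in pairs 1 to 4, with a mean of -0.59 ± 2.81 (SD, n = 4, two-sided exact permutation p = 0.625). The mean was thus smaller than its spread over the mice.

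**Figure D3:**
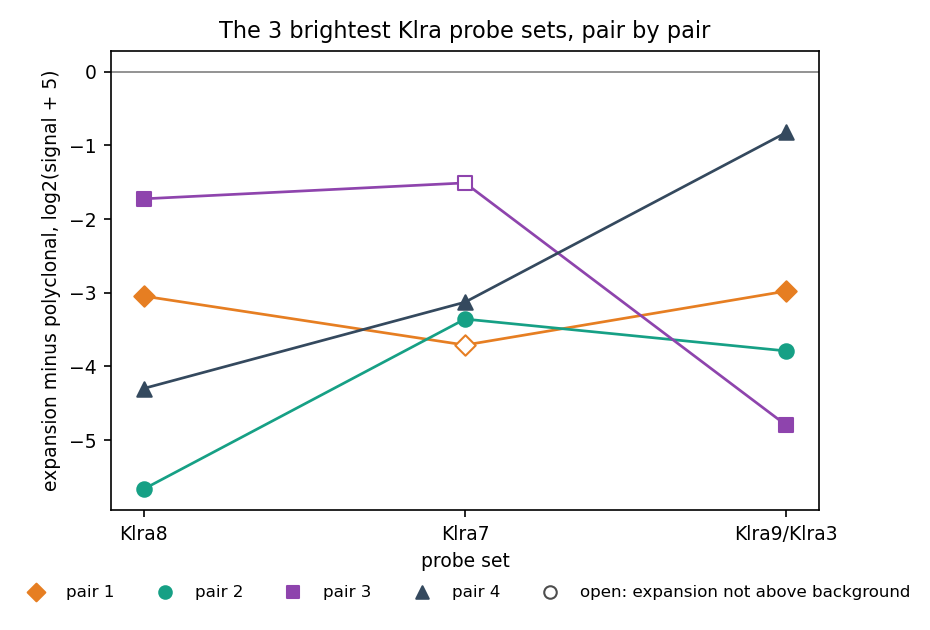
Difference of each expansion from its polyclonal partner in log2(signal + 5) for the 3 brightest tested Klra probe sets, with a line for each pair and open symbols where the expansion was not above background. Pair 3 is lowest at Klra9/Klra3 with -4.80 and pair 4 highest there with -0.82, so the lines cross.

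Sort purity differed most in pairs 2 and 3, where the polyclonal cells were recorded at 75 and 66%. In pairs 1 and 4, with purities of 91% or more, the differences were -3.05 and -4.30 for Klra8, -2.98 and -0.82 for Klra9/Klra3, and -3.71 and -3.13 for Klra7. The array of expansion 4 had a different scanner software record, and the effects of record and sample cannot be told apart. NK cells carry the same receptors. Of 7 NK markers, 5 were measured here, 4 were tested with a median difference of -0.28 and 0 passed with limma. The summed signal of the 5 was 949.7 to 2041 in expansions, against 1509.5 to 3415 in polyclonal samples. Most of that sum was Il18rap alone, with 550 to 1873 in expansions and 1290 to 3132 in polyclonal samples, so it is no measure of NK cell content. Ncr1, the defining marker measured here, was above background on 0 of 8 arrays. Tyrobp was above it in 2 expansions and 4 polyclonal samples, Fcer1g in 3 and 2, and Fcgr3 in 3 and 3. Il18rap was above it in 4 of 4 expansions and 4 of 4 polyclonal samples. The part of NK cells in the Klra signal was not tested.

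For markers of B cells, CD4 T cells and myeloid cells, 3, 2 and 3 were tested, the median differences were -0.21, 0.28 and 0.49, and 0 passed with limma. The CD4 T cell value rests on Foxp3 and Cd40lg. Cd4 itself was not tested, and had 6.55, 2.80, 17.4 and 5.95 in expansions 1 to 4, against 15.6, 43.9, 101 and 6.95 in polyclonal samples 1 to 4. It was lower in 4 of 4 pairs and above background in polyclonal samples 2 and 3 only. Cd79a, a B cell gene, was also lower in 4 of 4 pairs, with a mean difference of -0.77, and was above background in 1 of 4 expansions and 4 of 4 polyclonal samples. The part of these cells in the Klra signals was not tested.

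The next comparison took the alpha4-low pairs alone, with a separate term for the alpha4-high one. Of the 11 Klra probe sets, 7 were lower in 3 of 3 alpha4-low pairs, against 13.8% of all, and the median of the 11 was -1.01, beside -0.06 over all. With limma, 0 of the 5 tested Klra probe sets passed an adjusted p of 0.05, where 0.0533% of all tested probe sets did. At an unadjusted limma p under 0.05, 3 of the 5 were lower, beside 3.91% of all tested. The 3 were Klra8, Klra9/Klra3 and Klra7, and this count too describes those 5 alone. The difference of Klra8 was -3.90 (SE 0.61, 95% interval from -5.23 to -2.56, limma adjusted p = 0.0528), that of Klra7 -2.67 (SE 0.47, limma adjusted p = 0.0724) and that of Klra9/Klra3 -3.14 (SE 0.60, limma adjusted p = 0.107). Klra5 had -1.25 and Klra17 -0.94, with limma adjusted p-values of 0.966 and 0.989. With purity as a covariate the values were -0.77 for Klra9/Klra3, -5.05 for Klra8, -3.46 for Klra7 and 0.043 for Klra17, and of these Klra8 alone passed (limma adjusted p = 5.14e-05).

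These calls lay close to the threshold and moved with the processing. In the alpha4-low pairs, Klra8 passed in 7 of 12 alternatives, Klra9/Klra3 in 3 and Klra7 in 1, with a negative difference for each of them in 12 of 12. That of Klra9/Klra3 ran from -4.29 to -0.77 over these alternatives. Without mouse 3 all of them passed, Klra8 at -4.98, Klra9/Klra3 at -2.31 and Klra7 at -3.24. Without mouse 4, Klra8 at -3.70 and Klra9/Klra3 at -4.29 passed. Without mouse 1, Klra8 passed with a limma adjusted p of 0.0362. Passing was also commoner over the whole table in these fits, with 133 probe sets without mouse 3, 148 without mouse 4 and 20 without mouse 1, against 12 with all mice. Leaving out mouse 2, 3 or 4, or adding purity, left 1 residual degree of freedom, so those tests lean on the spread pooled over all probe sets.

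Whether the paired difference depended on the subclass was tested with 1 alpha4-high expansion, so the spread came from the alpha4-low pairs and each value concerns that expansion rather than its subclass. With limma, 0 of the 5 tested Klra probe sets passed an adjusted p of 0.05, where 0.0533% of all tested probe sets did, and 0 of the 5 had an unadjusted p under 0.05, where 6.57% of all did. The alpha4-low minus the alpha4-high difference was -0.85 for Klra8 (95% interval from -3.52 to 1.81), -0.16 for Klra9/Klra3 (from -2.76 to 2.44) and 1.04 for Klra7 (from -1.003 to 3.09). Each interval held 0 and spanned more than 4 log2 units.

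The genes whose level over the 8 arrays followed that of Klra8 or Klra7, each by its brightest probe set, were ranked by Pearson's r of log2(signal + 5) among 18433 single-gene probe sets. For Klra8 these were Itgal, the alpha chain of the integrin LFA-1 (r = 0.93), Smndc1 (0.91), Cryl1 (0.90), Nfya, a subunit of the factor NF-Y (0.90), and Mmd (0.90). The Itgal probe set was dim, and was above background on 6 of 8 arrays. For Klra7 they were Mterf3 (r = 0.97), Arid1a, a subunit of the BAF chromatin remodelling complex (0.94), Zdhhc14 (0.94), 4930523C07Rik (0.94) and the kinase gene Map4k4 (0.94). For the shared probe set of Klra9 and Klra3, added after its values were seen, they were Atg2b (r = 0.97), Habp4 (0.94), Zdhhc14 (0.94), Tsr1 (0.94) and Tjp1 (0.93). With Spearman's rho, 1 of 5 names was shared for each list, so the lists depend on the measure. Within the family r was 0.84 for Klra7 with Klra8, 0.89 for Klra7 with Klra9/Klra3 and 0.73 for Klra8 with Klra9/Klra3. The points are the same 8 arrays in 4 pairs, and the names are the highest of all candidates.

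The other lectin-like receptors of the NK gene complex showed a mixed pattern. Of 14 genes listed, 11 were measured and 7 tested. A lower mean was seen in 6 of the 7, against 51.4% of all probe sets that are not controls. The median was -0.56 over all pairs and -0.95 over the alpha4-low pairs, beside -0.04 and -0.07 over all tested probe sets. With limma, 0 passed an adjusted p of 0.05 in either. Klrc1, which encodes the inhibitory receptor NKG2A, had 1445, 312, 1045 and 4488 in expansions 1 to 4, against 3548, 3972, 2780 and 6891 in polyclonal samples 1 to 4. Each expansion was below its partner, and the mean difference was -1.74 (limma adjusted p = 0.9998). Its partner chain Klrd1, which encodes CD94, had a mean difference of 0.10, and Klrk1, which encodes the activating receptor NKG2D, one of -0.38.

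Klrg1, an inhibitory receptor of late effector T cells that binds cadherins, had 3668 in the alpha4-high expansion 1 and 192, 142 and 152 in expansions 2 to 4, against 359, 679, 1421 and 1168 in polyclonal samples 1 to 4. It was the only listed receptor of the complex whose alpha4-low minus alpha4-high difference passed the threshold, at -5.99 (limma adjusted p = 0.0472). That sets the single alpha4-high expansion against the spread of the other pairs, and it did not pass with a pseudocount of 1, with quantile normalization or without the intensity trend. Klre1, a receptor that pairs with Klri proteins, had 5609, 1597, 96.4 and 3592 in expansions, against 2589, 6368, 1449 and 10649 in polyclonal samples. Its difference was -2.47 in the alpha4-low pairs (limma adjusted p = 0.121), and the alpha4-high expansion was above its partner. In pair 1, Klra8, Klra9/Klra3 and Klra7 stood lower while Klrg1 and Klre1 stood higher.

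The signalling partners of the family showed no common direction. Of 8 tested, 2 had a lower and 6 a higher mean difference, with a median of 0.07, and 0 passed with limma. Tyrobp encodes DAP12, through which Ly49H signals. It had 188, 100.03, 34.4 and 5.66 in expansions 1 to 4, against 128, 151, 67.5 and 131 in polyclonal samples 1 to 4. It was above background in 2 of 4 expansions and 4 of 4 polyclonal samples, lower in 3 of 4 pairs, with a mean difference of -1.15 (limma adjusted p = 0.9998). Hcst, which encodes the adaptor DAP10, had a mean difference of 0.12. Ptpn6, which encodes SHP-1, the phosphatase of the inhibitory members, had one of 0.00.

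**Figure D4:**
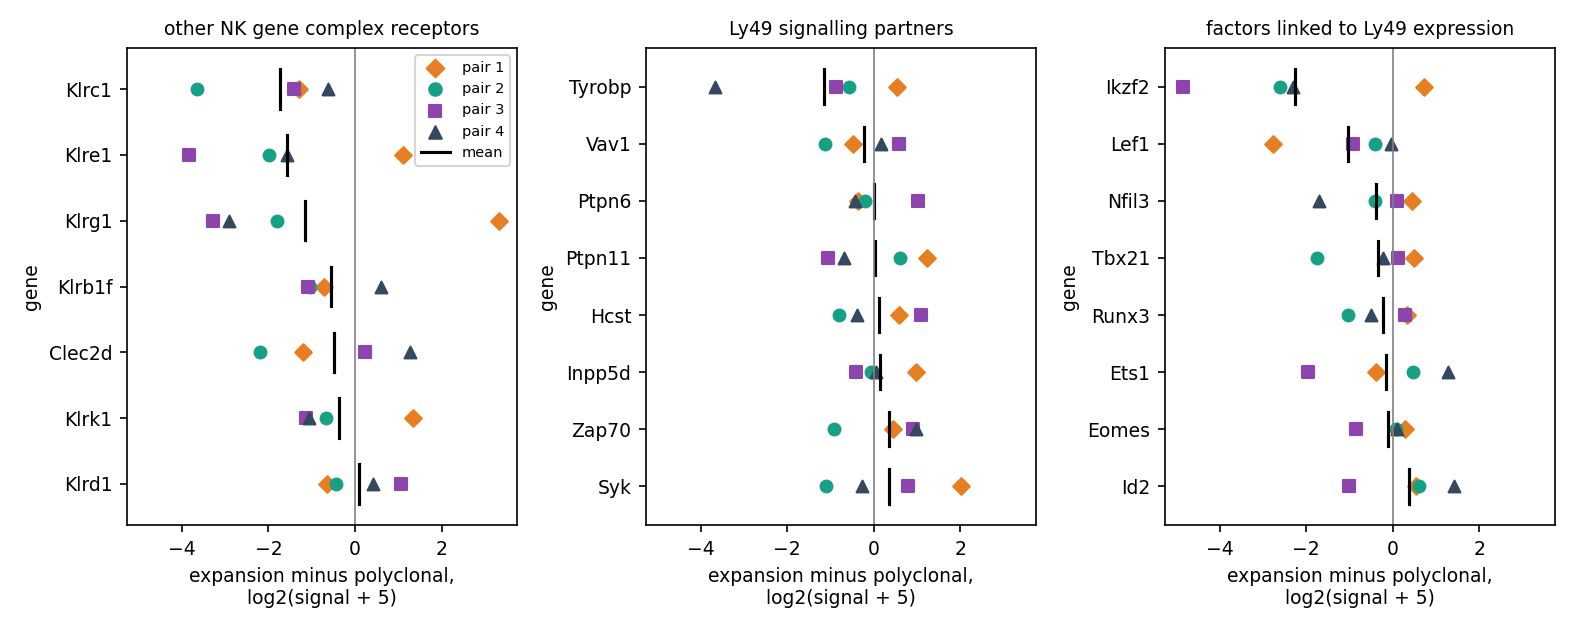
Difference of each expansion from its polyclonal partner in log2(signal + 5) for the tested genes of 3 lists, with 1 symbol per pair and a bar at the mean. Klrc1 and Lef1 lie left of 0 in all 4 pairs, and Klrg1, Klre1, Klrk1, Ikzf2 and Tyrobp lie right of 0 in pair 1 only.

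Ligands of the inhibitory members are MHC class I molecules. Of 5 genes, 3 had a lower mean difference, with a median of -0.11, and 0 passed with limma. H2-K1 had 12602, 8286, 5109 and 622 in expansions 1 to 4, against 7148, 19974, 11331 and 932 in polyclonal samples 1 to 4. The low values in both samples of mouse 4 go with the B10.BR strain, whose class I alleles differ from those of the other mice, and a difference in allele and one in level cannot be told apart. B2m, the shared light chain, had a mean difference of 0.17.

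Of the factors linked to Ly49 expression, 8 of 9 were measured, and 0 passed with limma. A lower mean difference was seen in 7 of them, against 51.4% of all probe sets that are not controls. The median was -0.28, beside -0.04 over all tested probe sets. Tcf7 was not analysed here. Lef1, which encodes a factor related to TCF-1, had 238, 521, 326 and 808.5 in expansions 1 to 4, against 1642, 691, 616 and 824 in polyclonal samples 1 to 4, and its mean difference was -1.02 (limma adjusted p = 0.9998). Pair 1 had the largest difference, and in the alpha4-low pairs it was -0.45. Ikzf2, which encodes Helios, had 1202, 234, 142 and 284 in expansions, against 727, 1446, 4246 and 1431 in polyclonal samples. It was lower in the 3 alpha4-low pairs, with a difference of -3.26 there (limma adjusted p = 0.0528), and higher in pair 1. Tbx21, Eomes and Runx3, which encode T-bet, Eomesodermin and RUNX3, had mean differences of -0.34, -0.10 and -0.22.

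Genes known from virtual memory CD8 T cells, a CD122+ population in which Ly49 receptors are common, showed no common direction. Of 8 genes, 6 were tested, 3 had a lower and 3 a higher mean difference, the median was -0.03, and 0 passed with limma. Il2rb, whose protein was used in the sort, had a mean difference of 0.30, Cd44 one of 0.39 and Bcl2 one of -0.33.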

How the data were processed

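RNA of sorted CD8 memory T cells was purified from all samples in parallel and amplified in a double procedure, which favours 3′ ends, per the labels' protocols. The deposited table holds linear intensities. The submitters' processing notes name MAS5 as the tool that made them, and no version is given in the sources used here. All arrays share 1 trimmed mean, so no scaling was added. Values were taken as log2(intensity + 5) of the deposited intensities. Control probe sets (64) and those with a mean at or under the median were left out, which kept 22518. Fits used limma 3.58.1 (R 4.3.3; eBayes, trended prior) and a block for mouse, two-sided, and Benjamini-Hochberg adjustment over all tested probe sets. The second model gave alpha4-low and alpha4-high expansions their own terms. Residual degrees of freedom were 3 and 2. The study's design pairs the samples by mouse; deviations from the group means correlated within mice 1 to 4 at 0.374, 0.0771, 0.214 and 0.338. The number of arrays limits the precision.

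Gene names came from the platform annotation; promoter sequences and positions came from RefSeq tables of GRCm38.p6. Named are all Klra probe sets, the 5 genes most like Klra8 and Klra7, and the listed genes, each by its brightest tested probe set. The members and lists were chosen with earlier results of these data known. The models were tested on simulated data. Alternatives covered the pseudocount, filter, scaling, trend, block, purity and left-out mice. Background was set after the data had been seen. Figures were drawn with matplotlib.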

Additional observations from a re-analysis of the deposited data

Results flagged for a closer look

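In Klra17, expansion 3 lay far from the other expansions. Its signal was 8.51, against 56.96 to 79.2 in the others, and the gap to the nearest was 0.832 of the group's whole range, just above the critical value of Dixon's test for 4 samples. Among 15 groups of values looked at, chance alone flags about 1 in 20. The probe set is dim, and expansion 3 was below its array's background of 61.9.

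Klra17 also differed in sign between the subclasses. It was higher in the 1 alpha4-high pair (0.13) and lower in all 3 alpha4-low pairs (-0.74, -1.95 and -0.14). The alpha4-low minus the alpha4-high difference was -1.08, with a limma adjusted p of 0.9997, so the difference did not pass its test.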

How the results depend on the processing

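Of 180 alternative values of the tested Klra probe sets, 155 kept their direction and side of the threshold, 12 newly passed it and 13 turned sign. In all pairs the number of Klra probe sets past the threshold stayed at 0 except without mouse 1 (0 to 1 with 1 mouse left out). In the alpha4-low pairs it was 1 with a pseudocount of 50, 1 without a filter and 1 with purity as a covariate, 2 with values raised to background (chosen after seeing the data), and 0 to 3 with 1 mouse left out. The median of the 11 was -1.005 and -0.37 with pseudocounts of 1 and 50, -1.01 to -0.65 with 1 mouse left out, -0.59 without mice 2 and 3 (added after seeing the data) and -0.10 with values raised to background. With Spearman's rho, 1 of 5 names like Klra8 and 1 of 5 like Klra7 stayed. Without mouse as the replicate block, 0 Klra probe sets passed in any comparison; the fit changed no Klra call, but the subclass difference of Klra8 became 2.91.

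Other values that turned sign were those of the purity covariate (all pairs, Klrg1 0.26 and H2-K1 0.0080; alpha4-low, Klra17 0.043 and Lef1 0.047; subclass difference, Klra5 -1.93, Klra9/Klra3 3.05, Klra17 0.26 and Klra7 -0.034) and those without mice 2 and 3 (Klrg1 0.22 and H2-K1 0.12). The subclass difference also turned for Klra5 with a pseudocount of 50 (-0.36) and with values raised to background (-1.05). With 1 mouse left out it ran from -0.29 to 1.02 for Klra5 (negative without mouse 2 or 3), from -1.94 to 0.033 for Klra8 (positive without mouse 2) and from -1.32 to 0.67 for Klra9/Klra3 (positive without mouse 2 or 3). The cause was not tested. Over the whole table, 0 to 20 probe sets passed in all pairs (0 as reported), 0 to 148 in the alpha4-low pairs (12) and 0 to 266 for the subclass difference (12).

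The limits are 4 pairs, 1 alpha4-high expansion, probe sets that are not specific to 1 member, and dim signals. Levels under background have no order.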
